A study of Mus musculus with 9 samples.

Results

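The genes described here encode the subunits of voltage-gated sodium, potassium and calcium channels, together with the genes that share their symbol families and the 2 channel partners Dpp6 and Dpp10. They were taken by symbol from the day 4 feature tables (Scn, Kcn and Cacn names, plus Dpp6 and Dpp10), which gave 122 genes, and 107 of these reached 50 UMI summed over the 9 libraries and are the members, of 30406 gene identifiers shared by all libraries. Just inside that limit were Cacng3 with 53 UMI, Cacng6 with 59 and Cacng5 with 60, and just outside it were Kcng4 with 49, Kcnk18 with 48 and Kcne3 with 46. The symbol rule is wider than the name voltage-gated. It takes 13 inward rectifiers (Kcnj), 11 leak channels of the K2P family (Kcnk), 7 genes of the Kcnn, Kcnt and Kcnu symbols (calcium- or sodium-activated potassium channels and the pH-sensitive Kcnu1) and the Cacng genes, most of which act on AMPA-type glutamate receptors rather than on calcium channels. The other members are 7 sodium channel alpha and 3 beta subunits, 23 Kv alpha subunits, 5 KCNQ, 8 EAG and ERG (Kcnh) and 2 KCNE subunits, and 10 calcium channel alpha1, 4 alpha2delta and 4 beta subunits.

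Mouse embryonic fibroblast (MEF) cultures were converted to induced neurons (iNs) with lentivirus carrying the BAM reprogramming factors, which are expressed under doxycycline, and all 9 cultures received them. The cultures were labelled WT, Per1-/- and Per2-/-, the mutants lacking a period gene of the circadian clock (alleles Per1tm1Drw and Per2tm1Drw), and each genotype was sampled on reprogramming days 4, 7 and 10. Every combination of genotype and day is 1 single-cell library, so a day is replicated by its 3 genotypes and a genotype by its 3 days, and nothing in the labels says which libraries share a MEF preparation. A MEF culture is not made of fibroblasts alone, and the channel genes are described in each kind of cell that could be named.

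An action potential starts when sodium channels open and ends when they inactivate and potassium channels open. The pore of a sodium or calcium channel is a single alpha subunit, helped by beta, alpha2delta or gamma subunits that move it to the membrane and shift its gating, while Kv, KCNQ and EAG channels are tetramers of alpha subunits. Neurons gain these channels as they mature. Glia use inward rectifiers and leak channels to hold potassium, muscle uses calcium channels for contraction, and macrophages use calcium-activated potassium channels.

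The libraries held 6885 to 13309 barcodes. Once barcodes under 3000 UMI or over 20% mitochondrial UMI were dropped, 81999 cells remained, and 74835 were kept after removal of 7164 cells scored as doublets. WT day 10 stood apart, with a median of 3552 UMI per barcode against 16135 to 25795 in the others and 55.4% of its barcodes past the limits against 86.1% to 94.5%. The matrices of day 10 were made with another Cell Ranger version and feature table than those of days 4 and 7, so a change of day 10 against an earlier day cannot be told apart from that change of processing. Transcripts of the targeted genes were not lower in the libraries labelled as their knockouts. Per1 had 9.14 to 10.3 CPM in Per1-/- against 6.33 to 7.90 in WT, and Per2 had 4.98 to 6.41 CPM in Per2-/- against 2.59 to 2.98 in WT. A 3′ count outside the changed part of a gene does not check the label, and whether these counts lie outside it was not tested. By western blotting, the paper found PER1 lost in its Per1-/- MEFs and PER2 lost in its Per2-/- MEFs. Cells with a UMI of Xist, the transcript of the inactive X chromosome, made 0.165% and 0.118% of the libraries labelled Per1-/- on days 7 and 10 and 47.5% to 85.1% of the other 7, so the Per1-/- libraries of different days did not have the same make-up. Of 93922 distinct barcodes, 1.64% occurred in more than 1 library.

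Cells were clustered with all members kept out of the clustering and were named from written marker genes. Neuron-like cells numbered 8771, fibroblast-like 40815, macrophage-like 6578, Schwann-like 2635, skeletal muscle-like 2594, astrocyte-like 1063 and mesothelial-like 589. The other 11790 cells (15.8%, and 4.71% to 37.0% of a library) stayed unnamed, and their channel genes are not described. Levels are given as CPM, the UMI of a gene summed over the cells of a class in a library and scaled to the usual fixed total over all genes. A 3′ library is made to count each transcript once, and levels of different genes are compared without a length correction. Whether gene length affected these counts was not tested.

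Neuron-like cells had the highest number of members with a UMI per cell. With cells thinned to 5000 UMI, the median number of members with a UMI was 5 per neuron-like cell, 3 per skeletal muscle-like cell, 2 per fibroblast-like, Schwann-like and astrocyte-like cell and 1 per macrophage-like and mesothelial-like cell. Cells under 5000 UMI were left out of thinned values. They made 5.80% of neuron-like, 10.9% of astrocyte-like and 0.831% to 2.92% of the cells of each other class. The mean in neuron-like cells was 4.44 on day 4, 5.6 at day 7 and 5.86 at day 10. The number of all genes per thinned cell is not given, so these numbers of members have no background. By mean CPM over the 9 libraries, 39 of 107 members were highest in neuron-like sums, 21 in skeletal muscle-like, 20 in astrocyte-like, 7 each in Schwann-like, macrophage-like and fibroblast-like and 6 in mesothelial-like sums. Of all 18852 genes with as many UMI, 31.2% were highest in neuron-like, 10.7% in skeletal muscle-like, 15.1% in astrocyte-like, 12.6% in Schwann-like, 14.0% in macrophage-like, 7.81% in fibroblast-like and 8.42% in mesothelial-like sums. The members' shares lay near these in neuron-like, astrocyte-like, fibroblast-like and mesothelial-like sums. They lay above the background in skeletal muscle-like sums and below it in Schwann-like and macrophage-like sums. None of these gaps was tested. The neuron-like level stood above every library of every other class for 12 members, against 6.42% of all genes. Among these were Cacna2d1, Cacna1b, Scn2a, Kcnb2, Kcnd2, Kcnh8, Kcnk3, Kcnk9 and Cacng2. Members given only in such lists or in a figure are outside the rule for named genes. Such counts were 5 members in skeletal muscle-like (background 0.918%), 5 in Schwann-like (1.71%), 2 in macrophage-like (5.48%) and 1 in astrocyte-like sums (1.49%), and none in fibroblast-like (0.477%) or mesothelial-like sums (0.366%).

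**Figure D1:**
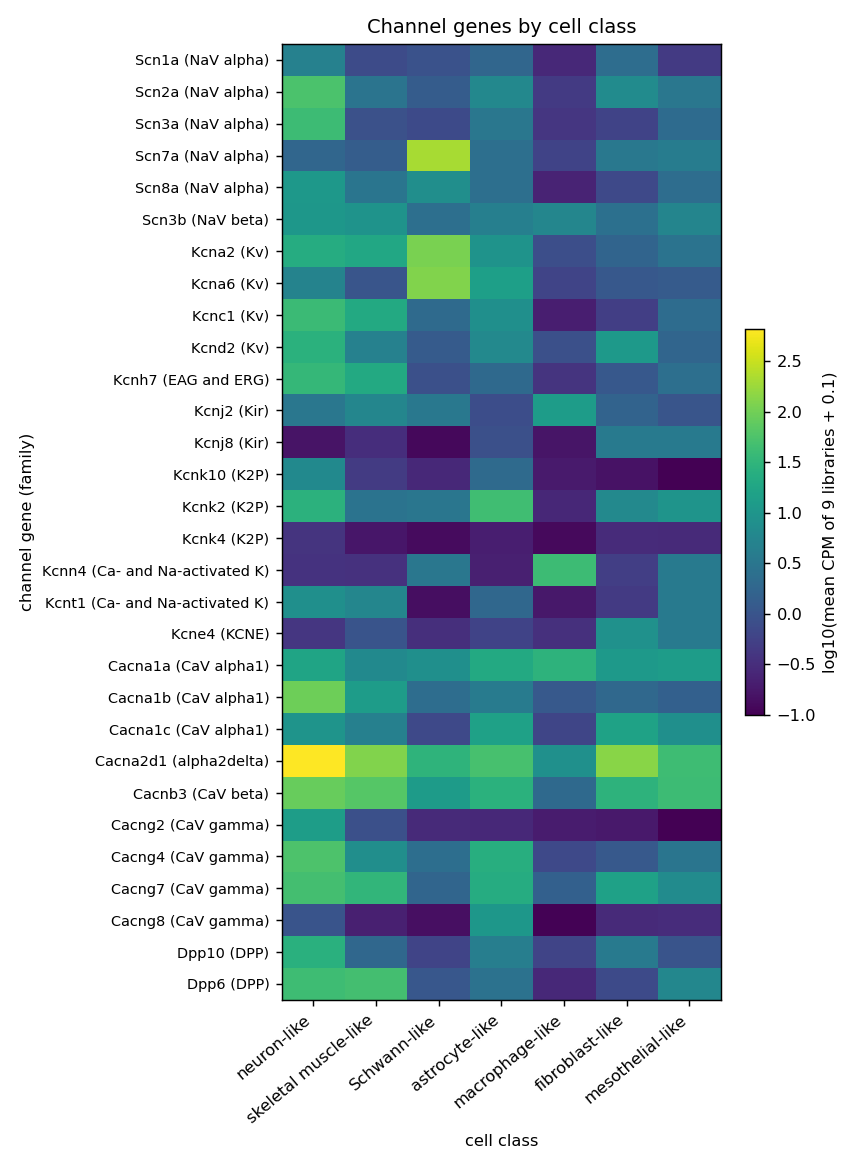
Mean CPM over 9 libraries of the named channel genes (rows, with family) in the 7 cell classes (columns), as log10(CPM + 0.1) on the colour scale. Cacna2d1 at 655 CPM in neuron-like sums and Scn7a at 207 CPM in Schwann-like sums are the highest values of their families.

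Tested within libraries by edgeR's quasi-likelihood test with the library as a block, where a call needs an adjusted p under 0.05 and at least a 2-fold difference, 62 of 94 members tested were higher and 16 lower in neuron-like than in fibroblast-like sums (background 22.1% higher and 23.5% lower of 17494 genes). Their median log2 difference was 1.82, against -0.02 for all genes. Against macrophage-like sums 67 of 81 were higher and 11 lower (background 33.4% and 24.2%), with a median of 4.85 against 0.14. Tested alone, neuron-like sums had 75 members past the filter on low counts and macrophage-like sums 34, against 14686 and 13105 of all genes. A member that passed only through neuron-like sums could hardly be called lower there, so members and background are not alike in this contrast. The classes were drawn in these same cells from other genes, so these tests describe the classes and are not independent of how cells were grouped.

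The most abundant member in neuron-like cells was Cacna2d1, an alpha2delta subunit that traffics calcium channels to the membrane. Its level was 852, 837 and 796 CPM on day 4 in WT, Per1-/- and Per2-/-, then 698, 661 and 693 at day 7 and 483, 491 and 385 at day 10, so that no day overlapped another. It was also the highest member of fibroblast-like (135 CPM) and skeletal muscle-like sums (124 CPM). After thinning, 91.7% of neuron-like cells had a Cacna2d1 UMI (95% Clopper-Pearson interval 91.1% to 92.3%), against 38.4% of fibroblast-like and 1.81% of macrophage-like cells, a class that should lack it. The interval pools cells of the 9 libraries and does not cover the spread between libraries. By library the thinned share ran from 29.0% to 47.4% in fibroblast-like and from 0.366% to 5.88% in macrophage-like cells. Before thinning the share was 98.0% in neuron-like, 74.9% in fibroblast-like and 7.53% in macrophage-like cells. The median depths were 12110 UMI in neuron-like, 22288 in fibroblast-like and 22113 in macrophage-like cells.

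Among pore-forming calcium channel genes Cacna1b, the N-type channel of presynaptic terminals, came first, with a mean of 92.7 CPM and a range of 70.3 to 116 over neuron-like sums. Its next highest class was skeletal muscle-like at 12.9 CPM. A Cacna1b UMI was found in 32.4% of thinned neuron-like cells and 0.414% of macrophage-like cells. Cacnb3, the beta subunit that partners N-type channels, followed at 85.7 CPM (68.3 to 97.8) and was present in 35.5% of thinned neuron-like cells against 0.782% of macrophage-like cells. Cacna1a (P/Q-type) was lower in neuron-like sums, at 16.8 CPM (12.6 to 24.1), than in macrophage-like sums, at 29.3 CPM (20.5 to 45.2), and these ranges overlapped.

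The sodium channel genes highest in neuron-like cells were Scn2a and Scn3a, the alpha subunits of immature neurons and of axon initial segments, with means of 53.9 and 40.7 CPM. Both lie in a stretch of sodium channel genes on mouse chromosome 2 that holds, among other sodium channel genes and in GENCODE on GRCm38, Scn3a (chr2:65457118-65567627, minus strand), Scn2a (chr2:65620771-65767447, plus strand), Scn1a (chr2:66270778-66440840, minus strand) and Scn7a (chr2:66673425-66784914, minus strand). Scn1a, the alpha subunit of fast-spiking neurons, reached 4.59 CPM and Scn8a, that of mature nodes and initial segments, 10.6 CPM. The beta subunit Scn3b stood at 10.3 CPM (2.72 to 16.8).

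Of the potassium channel genes the first Kv subunit was Kcnc1 (Kv3.1 of fast-spiking cells), at 39.3 CPM, with Kcnd2 (Kv4.2, the A-type channel of dendrites) at 27.2 CPM. Kcnh7, an ERG channel, had 35.3 CPM (27.2 to 47.3) and Kcnk2 (TREK-1, a leak channel opened by stretch and lipids) 28.4 CPM (14.5 to 40.1). Kcnt1, the sodium-activated channel, averaged 7.93 CPM. The highest inward rectifier was Kcnj2 at 3.13 CPM and the highest KCNE subunit Kcne4 at 0.298 CPM. Both of these stood higher elsewhere, Kcnj2 in macrophage-like sums at 12.9 CPM and Kcne4 in fibroblast-like sums at 8.29 CPM.

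Dpp6 and Dpp10, which have no enzyme activity and bind Kv4 channels, had 42.9 and 26.6 CPM in neuron-like sums. Dpp6 had 47.1 CPM (17.6 to 86.7) in skeletal muscle-like sums, which overlapped its neuron-like range, and its level in fibroblast-like sums was 0.623 CPM. Cacng4 and Cacng7, which regulate AMPA receptors, had 56.0 CPM (28.8 to 78.6) and 46.9 CPM (36.0 to 66.0).

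Across days several sodium channel genes rose in neuron-like sums. Scn2a had 17.7, 17.6 and 14.7 CPM on day 4 in WT, Per1-/- and Per2-/-, 52.9, 47.7 and 64.9 at day 7 and 80.6, 86.9 and 102 at day 10. Its days did not overlap, and it rose 5.58-fold from day 4 to day 10 (log2 2.48 ± 0.14 (SE), adjusted p 4.91e-07 in edgeR's quasi-likelihood test with day and genotype as factors). Scn3a had 6.29, 10.4 and 8.0 CPM on day 4, 41.9, 49.4 and 62.1 at day 7 and 61.8, 58.5 and 68.2 at day 10. Day 4 stood apart, while days 7 and 10 overlapped. It rose 7.92-fold by day 10 (log2 2.99 ± 0.15, adjusted p 3.31e-07) and 6.08-fold by day 7 (adjusted p 7.39e-06).

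Scn1a was at 0.974, 1.03 and 1.19 CPM on day 4, 3.31, 2.72 and 5.03 at day 7 and 13.0, 3.30 and 10.7 at day 10, where Per1-/- lay among the day 7 values. It rose by 2.99 ± 0.34 on the log2 scale from day 4 to day 10 (adjusted p 7.04e-05). Scn8a rose by 1.28 ± 0.17 (adjusted p 2.10e-04), from 5.80, 6.20 and 7.54 CPM on day 4 to 17, 16.9 and 12.3 on day 10. The beta subunit Scn3b rose 4.56-fold (log2 2.19 ± 0.18, adjusted p 6.38e-06), from 2.72, 3.40 and 5.22 CPM to 16.8, 15.4 and 16.4.

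**Figure D2:**
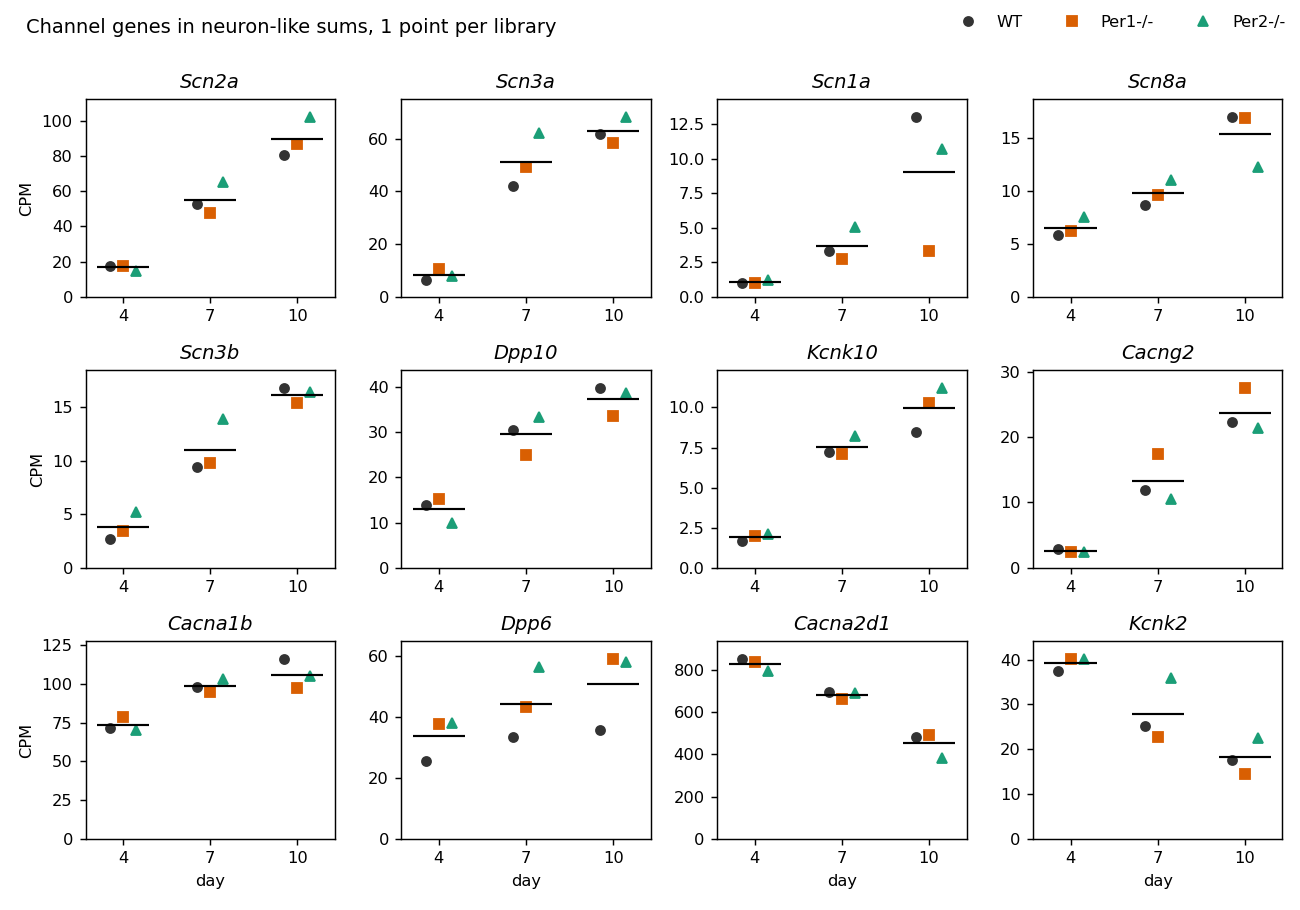
CPM of 12 channel genes in the neuron-like sums (vertical axis, from 0) by day (horizontal axis). Each point is 1 library, with WT as circles, Per1-/- as squares and Per2-/- as triangles, and the bar is the mean of the day. Scn2a rises on each day while Cacna2d1 falls from 852 to 385 CPM between its highest and lowest library.

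Over all members, 36 of 75 tested were higher and 5 lower on day 10 than on day 4 in neuron-like sums, where 22.1% of all 14686 genes tested were higher and 19.7% lower. The share of members called higher was 48.0% and the share called lower 6.67%. The median log2 difference was 0.77 for members and -0.01 for all genes. The 32 members not tested fell under the filter on low counts, with at most 0.51 CPM on average. Between day 7 and day 4, whose libraries share a feature table, 31 were higher and 4 lower (background 9.72% and 7.78%), and 26 of the 36 members higher on day 10 were among those 31. Both contrasts use the same day 4 libraries, so part of this overlap is built in, and the overlap for all genes is not given. From day 7 to day 10 there were 6 higher and 2 lower (background 4.65% and 2.91%, or 7.57% in either direction), and this count rested on single libraries, since it was 1 without Per2-/- day 7 and 9 without Per2-/- day 4. The count for day 7 against day 4 fell from 35 to 20 without Per2-/- day 7 and to 21 without WT day 4, and that for day 10 against day 4 stayed between 37 and 41 whichever library was left out. Shares of all genes called with a library left out are not given, so it cannot be seen whether members fell by more.

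**Figure D3:**
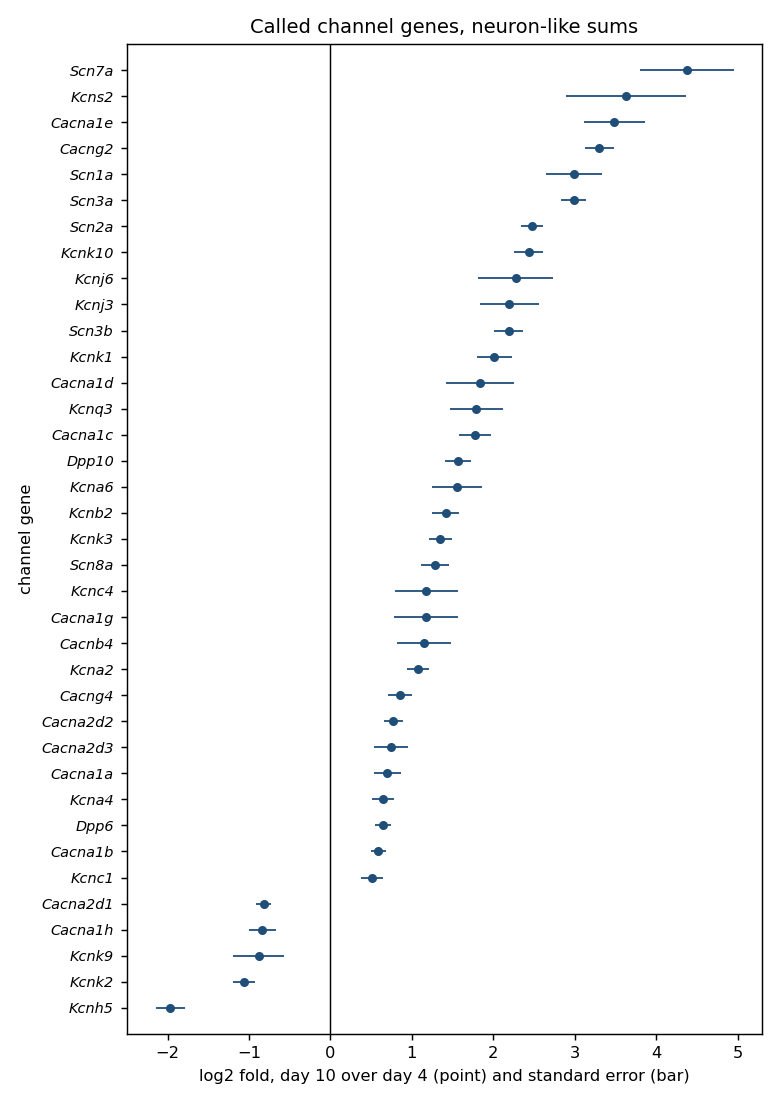
Log2 fold of day 10 over day 4 in neuron-like sums (points) with standard errors (bars) for 37 of the 41 channel genes called at an adjusted p under 0.05. The 32 genes right of 0 are higher on day 10 and the 5 left of it (Kcnh5, Kcnk2, Kcnk9, Cacna1h and Cacna2d1) are lower.

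By family, for day 10 against day 4, the sodium channel alpha subunits had 5 of 6 tested members higher and none lower, the calcium channel alpha1 subunits 6 of 7 higher and 1 lower, Kv subunits 9 of 17 higher and none lower, KCNQ 3 of 4 and DPP 2 of 2 higher, and K2P channels 3 of 7 higher and 2 lower. Sodium channel beta subunits had 1 of 3 higher, calcium channel beta subunits 1 of 4, inward rectifiers 2 of 6, Cacng genes 2 of 4 and alpha2delta subunits 2 of 3 with the other 1 lower, and the background of 22.1% higher holds for each. Neither the Kcnn, Kcnt and Kcnu genes (0 of 6) nor the EAG and ERG channels (0 of 6 higher, 1 lower) had a member called higher in that contrast, while for day 7 against day 4 they had 1 and 2 of 6. Kcnk10 (TREK-2) rose by 2.43 ± 0.18 on the log2 scale (adjusted p 3.69e-06), from 1.66, 2.01 and 2.12 CPM in WT, Per1-/- and Per2-/- to 8.49, 10.3 and 11.2, but over the neuron-like cells of cluster 12 alone its difference was 1.18 ± 0.62 (adjusted p 0.172). Its relative Kcnk2 fell by 1.06 on the log2 scale (SE 0.13, adjusted p 1.40e-04), from 37.4, 40.1 and 40.1 CPM to 17.6, 14.5 and 22.4. Over cluster 12 alone the Kcnk2 difference was -1.37 ± 0.20 (adjusted p 1.45e-04). Its means went from 49.1 to 24.3 CPM in cluster 17 and from 21.2 to 4.99 CPM in cluster 25. In cluster 4 they did not fall, with 43.3 CPM on day 4 and 65.9 CPM (31.2 to 101, 2 libraries) on day 10. Both genes encode stretch-sensitive leak channels, and their day 4 and day 10 libraries did not overlap in opposite directions.

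Cacng2, the AMPA receptor partner stargazin, had 2.80, 2.36 and 2.45 CPM at the first time point, 11.9, 17.4 and 10.6 at the next and 22.3, 27.5 and 21.4 at the last (WT, Per1-/- and Per2-/-). It rose 9.85-fold (log2 3.30 ± 0.18, adjusted p 4.48e-07). Cacna1b rose by 0.59 ± 0.09 on the log2 scale (adjusted p 4.80e-04), and Dpp10 and Dpp6 by 1.57 ± 0.16 and 0.64 ± 0.10 (adjusted p 4.03e-05 and 5.19e-04). Cacna2d1 fell by 0.82 on the log2 scale (SE 0.09, adjusted p 6.10e-05). Cacnb3 had a difference of -0.20 ± 0.11 (adjusted p 0.154), Cacng7 of -0.04 ± 0.14 (adjusted p 0.822) and Kcnh7 of 0.09 ± 0.13 (adjusted p 0.613), and none of these was called. Kcnh7 was called higher on day 7 than on day 4 (0.47 ± 0.12, adjusted p 0.0233), and its difference from day 7 to day 10 was -0.38 ± 0.13 (adjusted p 0.0975). Fibroblast markers summed to 666 to 1115 CPM in neuron-like sums on day 4 and 1021 to 1787 on day 10, and neuron markers to 5059 to 6006 and 9416 to 11391. Their part in the day differences was not tested.

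The E-box CAGCTG is a motif of basic helix-loop-helix factors, and the upstream sequences of members were searched for these letters, which read the same on both strands. RefSeq promoter windows (GRCm38.p6, 250 bases before the start) were matched by symbol for 74 of 107 members. The E-box was in 8 of the 23 matched members called higher on day 10 (34.8%), in 1 of the 3 matched members called lower, in 28.4% of matched members and in 14.7% of 27025 genes. A match is a run of letters and not a binding site, and its share was not tested. A gene counted as holding the motif if any of its windows did. Neither the number of windows nor their GC content was matched between members and all genes. The RE1 left part TTCAGCACC, read on either strand, was in 1 of the 74 members and in 0.348% of all genes. The window of Cacna1b is shown as the gene highest among pore subunits, and that of Kcnj3, a G-protein-gated rectifier that rose 4.58-fold, as a second gene called higher. For Kcnk2, a gene that fell, 1 of the 2 windows found to hold the E-box is shown. Whether Kcnk2 has windows without it is not given. Both found windows lie inside the span of Kcnk2 (chr1:189207930-189402273, minus strand) and not at its outermost start. Kcnj3 is outside the rule for named genes and was chosen after its values were seen. Each runs 5′ to 3′ toward the start, and capitals mark the E-box.
Cacna1b, chr2:24763153-24763402, minus strand: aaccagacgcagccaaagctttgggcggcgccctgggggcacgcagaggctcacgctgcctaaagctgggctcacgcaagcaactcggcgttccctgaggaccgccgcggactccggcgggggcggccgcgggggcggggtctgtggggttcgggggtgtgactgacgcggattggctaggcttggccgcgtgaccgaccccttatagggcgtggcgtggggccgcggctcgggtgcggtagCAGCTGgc
Kcnj3, chr2:55435720-55435969, plus strand: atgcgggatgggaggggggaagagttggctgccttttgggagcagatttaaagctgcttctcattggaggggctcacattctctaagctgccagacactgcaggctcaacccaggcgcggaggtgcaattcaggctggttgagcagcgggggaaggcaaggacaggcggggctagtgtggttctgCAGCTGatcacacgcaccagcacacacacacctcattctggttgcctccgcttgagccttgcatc
Kcnk2, chr1:189344193-189344442, minus strand: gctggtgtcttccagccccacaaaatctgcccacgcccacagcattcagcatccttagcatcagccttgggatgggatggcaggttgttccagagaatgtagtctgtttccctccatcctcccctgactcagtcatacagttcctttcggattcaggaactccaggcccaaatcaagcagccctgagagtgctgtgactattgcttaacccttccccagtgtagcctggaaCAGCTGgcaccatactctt

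Neuron-like cells formed 4 clusters whose mix shifted with day, and this stands beside every day difference above. Cluster 4, led by Miat, Lhx3 and Elavl3, made 74.6% to 75.2% of neuron-like cells at day 4, 17% to 43.0% at day 7 and 5.54% to 12.4% at day 10. Cluster 17, led by Snhg11, Stmn3 and Mapt, made 0.603% to 1.93%, then 21.3% to 46.0% and 35.2% to 54.7%. Cluster 12 was led by Vwc2l, Nts and Scg2, and cluster 25 by Htr3a, Ecel1 and Nefl.

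The clusters differed in which channels they carried. Since their shares differed by day, levels are compared within a day, as means of the libraries with at least 30 cells of the cluster, which was 1 library for cluster 17 at day 4 and 2 for cluster 4 at day 10. Scn2a was at 43.5, 85.7 and 139 CPM in cluster 17 at days 4, 7 and 10 and at 35.3, 68.7 and 69.3 CPM in cluster 12. The library ranges of these clusters overlapped at day 7 (74.9 to 94.0 and 56.9 to 77.0) and were apart at day 10 (124 to 151 and 68.2 to 71.3). Scn3a was highest in cluster 17 on every day, at 73.0, 120.2 and 111 CPM, against at most 71.4 CPM in any library of the others. Cluster 12 had Scn2a with little Scn3a (1.28, 4.61 and 5.64 CPM). Cluster 25 had the reverse, with Scn2a at 2.44, 8.29 and 8.26 CPM and Scn3a at 14.0, 45.1 and 57.1 CPM. It held Kcnc1 at 137, 121 and 122 CPM, where no library of another cluster passed 74.9 CPM. Dpp6 was lowest in cluster 12, at 21.3, 14.5 and 15.8 CPM, and was close in clusters 4 (34.5, 51.7 and 64.5 CPM) and 17 (37.9, 47.7 and 67.6 CPM). In cluster 25 it had 97.4, 71.5 and 69.2 CPM. Cacna2d1 was lowest in the mean in cluster 25 on each day, and its mean was not lower at later days there, with 269 CPM (223 to 316) at day 4, 334 CPM at day 7 and 333 CPM (276 to 363) at day 10. Members were kept out of the clustering, and these levels are given as a description with no test.

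Day changes were also found within single clusters. Over cluster 12 cells alone, an alternative added after the data were seen, 17 of 50 members tested were higher and 6 lower on day 10 than on day 4 (background 15.5% and 13.5%). Of the 36 members higher over all neuron-like cells, 26 could be tested there, 24 had the same sign and 15 were called. Cluster 12 made 20.7% to 31.9% of the neuron-like cells of a library, so part of this overlap is built in. The same counts for all genes are not given. Scn2a rose by 1.04 ± 0.15 on the log2 scale in cluster 12 (adjusted p 1.36e-04), and Scn3a by 2.05 ± 0.45 (adjusted p 0.00312), while Cacna2d1 fell by 0.98 (SE 0.13, adjusted p 6.12e-05). Dpp6 had the other sign there, -0.36 ± 0.23 (adjusted p 0.26), and the calls of Scn8a (0.81 ± 0.35, adjusted p 0.0925), Kcnk10, Cacna1a and Cacng4 were lost. No member was called between days 7 and 10 in cluster 12, where 6 of 50 had an unadjusted p under 0.05 against 12.8% of all genes, and edgeR called 1.32% of all genes. Over cluster 17 cells, 6 of 58 members were higher and 2 lower on day 10 than on day 7 (background 4.68% and 2.71%), with Scn2a up by 0.77 ± 0.12 (adjusted p 0.00406), Scn8a by 0.92 ± 0.22 (adjusted p 0.0294) and Scn3b by 0.84 ± 0.19 (adjusted p 0.0208). Scn3a, highest in cluster 17, had a difference of -0.0010 ± 0.10 in that test (adjusted p 0.999). In cluster 4 the Scn3a means were 9.13, 26.3 and 13.3 CPM at days 4, 7 and 10, the last from 2 libraries.

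**Figure D4:**
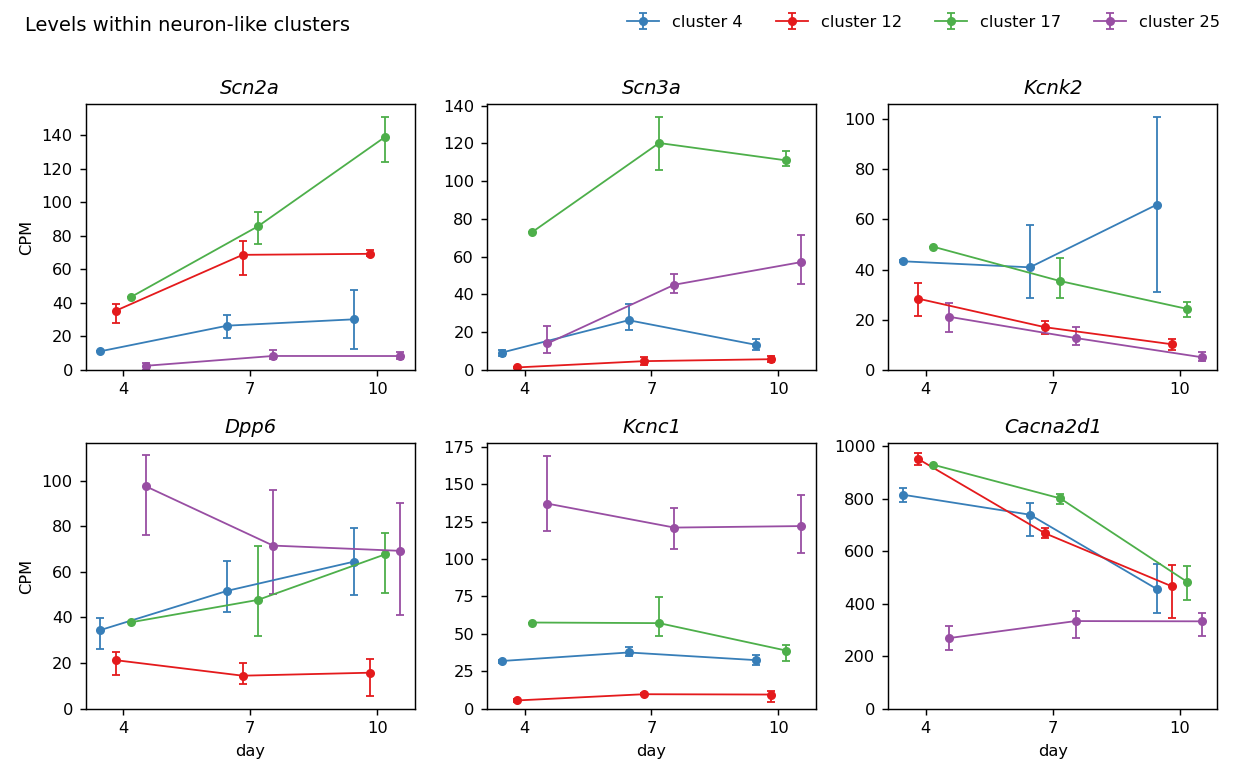
CPM (vertical axis, from 0) of 6 channel genes by day in the 4 neuron-like clusters, as the mean of the libraries with at least 30 cells of the cluster, with bars from the lowest to the highest of them. Cluster 25 holds Kcnc1 above every other cluster on each day, cluster 17 holds Scn2a and Scn3a highest, and the Cacna2d1 means of clusters 4 and 12 go from 815 and 951 CPM on day 4 to 456 and 466 on day 10, while that of cluster 25 goes from 269 to 333.

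The channel partners, a list of 44 genes for auxiliary subunits, HCN and NALCN channels and proteins of the axon initial segment, was tested in the same sums. Of 42 tested, 25 were higher and 1 lower on day 10 than on day 4 in neuron-like sums, beside 22.1% and 19.7% of all genes, with a median log2 difference of 0.67 against -0.01 for all genes. Ank2 (344 CPM) and Ank3 (279 CPM), the ankyrins that anchor sodium channels, were the most abundant, with Nrcam (131 CPM), Fgf13 (116 CPM) and Cntn1 (86.9 CPM). Cntn1, a partner of sodium channels at nodes, rose from 25.5, 29.9 and 27.6 CPM to 161, 107 and 175 (log2 2.42 ± 0.18, adjusted p 4.36e-06). Ank2 rose by 0.81 ± 0.09 on the log2 scale (adjusted p 4.28e-05), Ank3 by 0.38 ± 0.09 (adjusted p 0.00684) and Fgf13 by 0.59 ± 0.09 (adjusted p 4.46e-04). Over cluster 12 cells alone the last 2 differences were -0.0026 for Ank3 and -0.40 for Fgf13. Nrcam had means of 121, 144 and 127 CPM over the neuron-like sums of days 4, 7 and 10. The 1 partner called lower was Cntn2, named for that count, which fell by 1.65 on the log2 scale (adjusted p 0.00124).

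To ask whether a day change belonged to neuron-like cells, it was set against that of fibroblast-like cells of the same libraries with a term for the difference. Between day 10 and day 4 the term was called for 18 of 94 members, 13 with the larger rise in neuron-like sums and 5 with the smaller (background 14.7% and 17.1% of 17494 genes). Between day 7 and day 4 it was called for 8, all positive (background 5.70% higher and 8.96% lower), and this count was 3 with doublets kept, 3 without Per1-/- day 4 or WT day 7 and 4 without WT day 4 or Per2-/- day 4. Those alternative counts have no share of all genes beside them. Cacna1c, the L-type channel, gave the smallest p. In neuron-like sums it rose from 3.86, 4.22 and 4.43 CPM to 18.6, 11.5 and 12.2, and in fibroblast-like sums it had 15.7, 19.0 and 18.5 CPM on day 4 and 19.5, 11.3 and 11.8 on day 10. The difference of the changes was 2.16 ± 0.14 on the log2 scale (adjusted p 9.89e-06). Scn1a followed with 3.23 ± 0.43 (adjusted p 3.47e-04) and Scn2a with 1.84 ± 0.26 (adjusted p 4.58e-04), though Scn2a also rose in fibroblast-like sums, by 0.63 ± 0.13 (adjusted p 0.0201). Kcna2 went the other way, with a term of -1.43 ± 0.35 (adjusted p 0.00994), and rose by more in fibroblast-like sums.

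**Figure D5:**
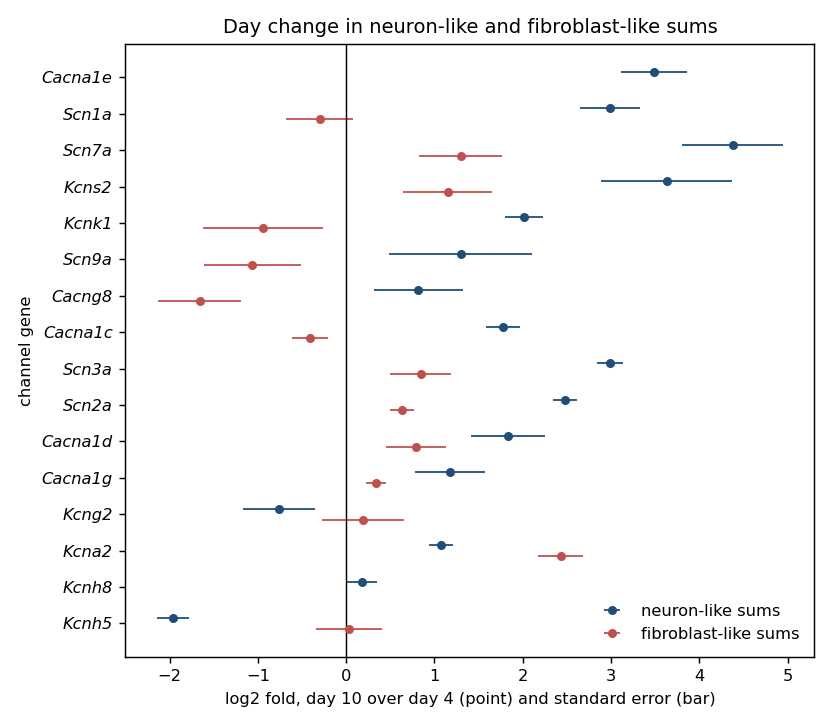
Log2 fold of day 10 over day 4 (points) with standard errors (bars) in neuron-like and fibroblast-like sums, for 16 of the 18 channel genes whose changes differed between the classes. Cacna1c rises in neuron-like sums and lies below 0 in fibroblast-like sums, and Kcna2 lies further right in fibroblast-like sums. A gene with 1 point failed the filter on low counts in the other class.

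In fibroblast-like sums 14 of 85 members tested were higher and 1 lower on day 10 than on day 4 (background 9.83% and 6.94% of 17003 genes), with a median log2 difference of 0.38 against 0.01 for all genes. In edgeR 3 were called between days 7 and 4 and 2 between days 10 and 7, all higher (background 1.06% higher for each, and 0.988% and 0.218% lower), where DESeq2 called 13 and 5 (against 7.20% and 2.63% of all genes in either direction). The first count was 0 without Per2-/- day 7 or WT day 7, 1 without Per2-/- day 4 or Per1-/- day 7, 5 without Per1-/- day 4 and 6 with no filter on low counts. The second was 1 without any library other than Per1-/- day 4 and WT day 10, and the count for day 10 against day 4 fell from 15 to 9 without Per1-/- day 10. How many of all genes were called in these reduced or unfiltered fits is not given. Kcnj8, the pore of vascular ATP-sensitive potassium channels, went from 0.729, 0.750 and 0.989 CPM on day 4 in WT, Per1-/- and Per2-/- to 4.01, 6.85 and 5.70 on day 10 (log2 2.68 ± 0.27, adjusted p 0.00118). Kcna2 rose by 2.43 ± 0.25 on the log2 scale (adjusted p 0.00134). Kcnk4 (TRAAK) had 1 to 10 UMI in each library of days 4 and 7 and 46, 32 and 38 on day 10. This difference and the change of feature table on day 10 cannot be told apart. Schwann markers summed to 16.4 to 23.7 CPM in fibroblast-like sums on day 4 and 44.8 to 106 on day 10, and neuron markers to 231 to 268 and 134 to 310.3. Kcna2 had at most 5.06 CPM in fibroblast-like sums, against 75.1 to 174 in Schwann-like sums, and the part of these markers in its rise was not tested.

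Schwann-like cells had their own set. Scn7a, an atypical sodium channel of glia, had 59.1, 187 and 434 CPM as its lowest, middle and highest library there, and at most 13.0 in any library of the other classes. Kcna6 (125 CPM, 83.4 to 180) and Kcna2 (113 CPM, 75.1 to 174) encode Kv1 subunits, and Kcna1 at 49.1 CPM and Kcnk5 at 23.0 CPM, named after their values were seen, were also highest there. Scn7a was also called higher on day 10 than on day 4 in neuron-like sums, where its libraries had 0.177 to 0.244 CPM on day 4 and 8.10, 2.93 and 2.13 on day 10. Schwann markers there summed to 59.4 to 70.0 CPM on day 4 and 74.4 to 83.9 on day 10, and their part in that rise was not tested.

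Skeletal muscle-like cells carried Cacna2d1 at 124 CPM. Against fibroblast-like sums 45 of 94 members were higher and 23 lower (background 15.9% and 15.6%). The muscle subunits Cacng1 (9.46 CPM, 0.763 to 33.2) and Cacna1s (2.43 CPM), the pore of the muscle L-type channel, and Kcnn3 (41.1 CPM) were highest in this class and are named after their values were seen.

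In macrophage-like sums 12 of 83 members tested were higher and 59 lower than in fibroblast-like sums (background 20.7% and 31.6%). Tested alone, macrophage-like sums had 34 members past the filter on low counts and fibroblast-like sums 85, against 13105 and 17003 of all genes. A member that passed only through fibroblast-like sums could hardly be called higher in macrophage-like sums, so members and background are not alike here. Kcnn4, the calcium-activated potassium channel KCa3.1 of blood cells, led macrophage-like sums with 41.4 CPM. Its libraries had 51.4, 70.1 and 62.1 CPM at day 4 (WT, Per1-/- and Per2-/-), 55.1, 44.5 and 16.1 at day 7 and 42.8, 27.4 and 3.58 at day 10, and no day difference was called. Cacna1a followed at 29.3 CPM. Day 10 against day 4 gave 2 of 34 members tested higher and none lower (background 7.36% and 6.10%), which were Scn3b, from 3.05, 3.88 and 4.04 CPM to 8.80, 6.51 and 8.77, and Kcna6, with no UMI in the 3 libraries of day 4 and 11, 20 and 34 UMI on day 10. Kcna6 was highest in Schwann-like sums, and Scn7a, also highest there, had a difference of 3.47 ± 1.2 that was not called (adjusted p 0.0898). The 11 Schwann markers summed to 35.4 to 46.3 CPM in macrophage-like sums on day 4 and 28.7 to 57.0 on day 10, with none of them at 0, and their part in the Kcna6 count was not tested. The count of 2 was 0 without Per2-/- day 4 or Per2-/- day 10, 1 without WT day 7, WT day 10 or any of the Per1-/- libraries, and 10 with doublets kept. No share of all genes called is given for these alternatives. With edgeR no member was called between days 7 and 4, where 3 had an unadjusted p under 0.05 (8.82%, against 19.6% of all genes) and 0.473% of all genes were called, or between days 10 and 7, where 6 had such a p (17.6%, against 8.90%) and 0.961% of all genes were called (0.847% higher), and DESeq2 called none in either.

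Astrocyte-like and mesothelial-like cells were few. Astrocyte-like sums had Cacna2d1 at 51.1 CPM (25.4 to 104) and Kcnk2 at 44.3 CPM (15.1 to 96.6), and Kcnj10, the glial potassium-buffering rectifier, at 41.6 CPM (16.7 to 75.2) against at most 28.3 in any library of the other classes, where the highest were Schwann-like. Kcnj10 was named after its values were seen. Cacng8, an AMPA receptor partner, was at 10.3 CPM (6.55 to 12.4) in astrocyte-like and 0.878 CPM in neuron-like sums. Mesothelial-like sums had Cacna2d1 at 42.5 CPM and Cacnb3 at 41.3 CPM.

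In edgeR with day as a factor, no genotype difference of a member was called, though other settings called some. None of 75 members passed in neuron-like sums for Per1-/- against WT, where 0% of all genes did and 3 members had an unadjusted p under 0.05 (4.0%, against 4.63% of all genes), or for Per2-/- against WT, where 0.00681% of all genes did and 10 members had such a p (13.3%, against 5.16%). DESeq2 called 1 member in each (0.150% of all genes in each), and with no filter on low counts edgeR called 1 and 3 (0.712% and 0.717% of all genes). The smallest p in both was that of Dpp6, with 25.6, 33.2 and 35.7 CPM in WT on days 4, 7 and 10, 37.7, 43.1 and 58.8 in Per1-/- and 37.9, 56.1 and 58.0 in Per2-/-. On each day the WT library was the lowest of the 3. The difference was 0.57 ± 0.10 for Per1-/- and 0.69 ± 0.10 for Per2-/- on the log2 scale, with adjusted p of 0.293 and 0.0791 over all genes. In fibroblast-like sums none of 85 members passed in either contrast (2 called in each by DESeq2, with 1.59% and 0.765% of all genes), though 6 were called for Per1-/- without the Per1-/- day 4 library. The share of all genes called in that reduced fit is not given, so the count of 6 has no background. With all libraries 11 members had an unadjusted p under 0.05 for Per1-/- (12.9%, against 9.39% of all genes) and 14 for Per2-/- (16.5%, against 7.49%). For Per2-/- 62 of 85 lay above 0 (share of all genes not given), with a median log2 difference of 0.22 against -0.0045 for all genes. In macrophage-like sums none of 34 passed (1 and 0 called by DESeq2, with 1.40% and 2.10% of all genes), though 3 were called for Per2-/- without Per2-/- day 4, and 1 for Per1-/- with doublets kept. These counts of 3 and 1 also lack a share of all genes from the same fits. For Per1-/- 11 members had an unadjusted p under 0.05 (32.4%, against 12.7% of all genes). Above 0 lay 3 of 34 (share of all genes not given), with a median log2 difference of -0.76 against 0.01 for all genes. The channel partners had a median of -0.58. Ordered by day, neuron markers in macrophage-like sums had 79.1, 45.9 and 33.3 CPM for Per1-/- where WT had 137, 68.5 and 109, and fibroblast markers had 970.5, 573 and 529 CPM where WT had 1100.4, 801 and 2618. Macrophage-like cells made 4.44%, 23.3% and 16.2% of the Per1-/- cells and 1.93%, 6.72% and 4.59% of the WT cells, and the part of these values in the shift was not tested. For Per2-/- 5 had such a p (14.7%, against 16%). The background of calls was 0% in fibroblast-like sums and 0.0153% and 0% in macrophage-like sums.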

How the data were processed

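The 9 libraries are 10x Genomics 3′ single-cell libraries. The authors deposited, per library, UMI counts per gene and barcode, made with Cell Ranger on mm10. The matrix headers name version 4.0.0 for days 4 and 7 and 6.0.0 for day 10, while the submitters' processing notes name 7.1. The day 4 and day 10 feature tables hold 31053 and 32285 identifiers, of which the 30406 shared were used.

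Barcodes under 3000 UMI, or with over 20% of UMI from mitochondrial genes, were dropped. Doublets were scored per library and left out at 0.8% per 1000 barcodes. Cells of all libraries were clustered together in scanpy 1.11.5 (2000 variable genes, 30 principal components, 15 neighbours, leidenalg 0.10.2 at resolution 1), without batch correction and without the channel genes, their partners and mitochondrial genes. Clusters were named from marker lists. A cluster with over 80% of its cells from 1 library stayed unnamed, a limit set after the clusters were seen.

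UMI were summed per class and library. Sums were tested with edgeR 4.0.16 (quasi-likelihood, TMM, filterByExpr, Benjamini-Hochberg adjustment over all genes, threshold 0.05) in R 4.3.3. The 3 genotypes served as the repeats of a day and the 3 days as those of a genotype, and class contrasts had the library as a block. Each group is 1 library, so p-values measure the spread between these libraries only. Standard errors are the log2 difference over the square root of F. The scripts were tested on simulated data. Alternatives were DESeq2 1.42.0, RLE size factors, no filter, doublets kept, resolution 2, no genotype term, neuron-like cells with Snap25 and Syt1 UMI, and each library left out. Intervals cover counting error only.

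The members and gene lists were chosen with earlier results of these data known. Named genes were taken by a rule on level, on change and on family, and genes outside it are said to be so. Some members are not reported here by name. Positions are from GENCODE on GRCm38.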

Additional observations from a re-analysis of the deposited data

Results flagged for a closer look

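The results below were picked out because the day change of a channel gene differed between neuron-like and fibroblast-like sums by the test of that difference (edgeR's quasi-likelihood test with the library as a block, adjusted p under 0.05). Of the members, 18 passed for day 10 against day 4 (13.8% of those tested were positive, against 14.7% of all genes) and 8 for day 7 against day 4 (8.51% positive, against 5.70%), and the genes given are under the rule for named genes. Values are the neuron-like change minus the fibroblast-like change on the log2 scale. For day 10 against day 4 the difference was 2.16 for Cacna1c, 3.23 for Scn1a, 1.84 for Scn2a, 1.95 for Scn3a, 2.37 for Cacng8 and 2.92 for Scn7a. It was -1.43 for Kcna2. For day 7 against day 4, whose libraries share a feature table, it was 1.5 for Cacna1c, 2.10 for Scn1a, 1.16 for Scn2a, 2.0 for Scn3a and 2.72 for Cacng8.

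Cacna1c, Scn1a, Scn2a, Scn3a and Cacng8 were thus called over both spans, which share the day 4 libraries. Over the shorter span the call was lost with doublets kept for Scn1a and Scn3a, with DESeq2 for Cacng8, and without single libraries for Scn1a (Per1-/- day 4), Scn2a (Per1-/- day 4, WT day 7 or Per2-/- day 7) and Scn3a (WT day 4, Per2-/- day 4 or WT day 7). Over the longer span that of Scn7a was lost with doublets kept, at 0.32, and without Per1-/- day 4, at 2.69. Scn7a and Kcna2 were called over the longer span only, which cannot be told apart from the change of software and feature table on day 10. The level of Cacng8 was 0.878 CPM on average in neuron-like sums. Scn7a and Kcna2 were highest in Schwann-like sums, and the part of Schwann markers in their values was not tested. No group held 4 samples, so none was searched for a single sample far from the others.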

How the results depend on the processing

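No paired analysis was possible because the labels give no replicate numbers and each genotype and day has 1 library. The genotype term of the day contrasts and the library block of the class contrasts are factors of the design and no such pairing. Over cluster 12 alone, members called in neuron-like cells numbered 15 for day 7 against day 4, 23 for day 10 against day 4 and 0 for day 10 against day 7 (14.0%, 29.1% and 1.32% of all genes). There the log2 change turned for Kcnh7 (-0.21), Fgf13 (-0.046) and Dpp6 (-0.47) between days 4 and 7, and for Fgf13 (-0.40), Dpp6 (-0.36) and Ank3 (-0.0026) between days 4 and 10. With no filter on low counts, 15 members were called in neuron-like sums for day 10 against day 7, 1 for Per1-/- and 3 for Per2-/- against WT, 6 in fibroblast-like sums for day 7 against day 4 and 4 in macrophage-like sums for day 10 against day 4. DESeq2 called 1 member for each mutant in neuron-like sums, 2 for each in fibroblast-like sums and 1 for Per1-/- in macrophage-like sums, and 13 and 5 in fibroblast-like sums for day 7 against day 4 and day 10 against day 7. With doublets kept, counts were 3 for neuron-like day 10 against day 7, 5 and 1 for the same fibroblast-like contrasts, 10 for macrophage-like day 10 against day 4, 1 for macrophage-like Per1-/- against WT and 3 for the class-by-day difference on day 7. Macrophage-like against fibroblast-like differences then turned for Kcnt1 (0.023), Kcnh7 (0.16), Fgf13 (0.072), Dpp6 (0.94) and Kcnc1 (1.65). At resolution 2 the Fgf13 difference also turned (0.074), and counts were 6 for fibroblast-like day 7 against day 4 and 4 for macrophage-like day 10 against day 4. Without the genotype term counts were 1 for fibroblast-like day 10 against day 7 and 1 for macrophage-like day 10 against day 4. For the counts with no filter, doublets kept, resolution 2 or no genotype term, the share of all genes called is not given in this section. Whether members changed there by more than all genes cannot be read from them. Over neuron-like cells with both a Snap25 and a Syt1 UMI (60.4% to 72.7% of them by library on day 4 and 74.9% to 80.9% on day 10), counts were 30 for day 7 against day 4, 8 for day 10 against day 7 and 36 for day 10 against day 4 (17.6%, 7.92% and 42.1% of all genes). There 45 values for named genes kept their call and 7 lost it, those of Kcnh7, Dpp6 and Scn8a between days 4 and 7, Kcnk2 and Scn8a between days 7 and 10, and Kcnc1 and Cacna1a between days 4 and 10. Shares without thinning were 98.0% for Cacna2d1, 60.3% for Cacna1b and 64.7% for Cacnb3. The cause of these changes was not tested.

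With each library left out in turn, neuron-like counts ranged from 20 to 38 for day 7 against day 4, from 1 to 9 for day 10 against day 7 and from 37 to 41 for day 10 against day 4. Fibroblast-like counts ranged from 0 to 5, 1 to 3 and 9 to 20, with 9 reached without Per1-/- day 10. Macrophage-like day 10 against day 4 ranged from 0 to 3, with 0 without Per2-/- day 4 or Per2-/- day 10. Genotype counts ranged from 0 to 6 for fibroblast-like Per1-/- (6 without Per1-/- day 4) and 0 to 3 for macrophage-like Per2-/- (3 without Per2-/- day 4), and the other genotype and macrophage-like day counts stayed at 0. Class-by-day counts ranged from 3 to 10 and 12 to 20, and class counts from 76 to 78, 75 to 78, 66 to 70 and 70 to 74. None of these ranges has the share of all genes called beside it. Of 3010 alternative values for single named genes, 2815 kept direction and side of the threshold, 183 lost the call and 12 turned.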
